A study of Mus musculus with 9 samples.

Results

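The genes described here encode the transport machinery of the primary cilium and the BBSome, a protein coat that carries membrane proteins in and out of that organelle. They are 35 genes taken by name: 8 subunits of the intraflagellar transport complex IFT-B, 2 of IFT-A, 4 subunits or members of the kinesin-2 motors, 2 subunits of the dynein-2 motor, 7 BBSome subunits, 2 chaperonin-like BBS proteins, 3 small GTPases with the adaptor Tulp3, 3 transition zone genes and 3 transcription factors. Every non-control probe carrying a member's symbol, or an older symbol of the same gene, was taken, and the brightest one stood for the gene. On that rule 34 of the 35 genes were measured, among 20923 genes measured in all. Mks1, a transition zone gene, had no probe under its name or an older one.

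RNA labelled as pancreas came from C57BL/6 mice on postnatal day 3 (PND3). The Glis3 mutant pool held RNA of 2 pups, called Glis3zf/zf in the series, and the wild-type (WT) pool held RNA of 2 WT pups. Both pools were hybridised together on 2 Agilent arrays with the dyes exchanged, so the first array below had mutant RNA in Cy3 and the second had it in Cy5. With 1 pool per genotype the arrays show technical spread only, and no p-value is given. The embryonic arrays of the series (E15.5) list probe sets without gene names and were not used here.

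A primary cilium is a single antenna that most kidney tubule cells and pancreatic duct and islet cells carry. IFT trains are pulled toward the tip by kinesin-2, a step tied to IFT-B, and back by dynein-2, a step tied to IFT-A. The BBSome rides on these trains with membrane cargo. Proteins pass the transition zone at the cilium's base, and mutations in many of these genes cause cystic kidneys, Bardet-Biedl syndrome or related ciliopathies. RFX transcription factors bind a palindromic promoter element, the X-box, in many ciliary genes. Glis3 is a zinc finger transcription factor whose protein has itself been found at the primary cilium, and mice without it develop cystic kidneys and diabetes.

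The members' promoters were set beside these values because 2 members, Rfx2 and Rfx3, encode X-box binding factors. One arm of the X-box, GTTGCC, was searched on both strands in RefSeq promoters of build GRCm38.p6, from 250 bases before to 50 bases after each start site. Promoters were found for 29 of the 35 members, all but Dync2li1, Foxj1, Ift122, Ift80, Ift81 and Tmem67, and 14 of the 29 (48.3%) held the arm, against 3821 of 27025 genes in all (14.1%). Of 40 other cilium genes, 37 had a promoter and 14 of those (37.8%) held it. The share was higher than the members' in 18 markers of motile, multiciliated cells other than Foxj1, with 8 of 14 promoters (57.1%). Of 9 kidney genes, 8 had a promoter and 0 of those held it. Members' promoters also had a higher content of G and C, with a median of 62.0% against 52.8% over all genes, and the part this plays in the shares was not tested. The windows below are those of the 8 members with a match before the start site, with the match in capitals and flanking bases in lower case.
Arl13b, chr16:62847208-62847229, minus strand: acgctccaGTTGCCtagttacc
Ift140, chr17:25015969-25015990, plus strand: gttgtgacGGCAACctcgcgcc
Ift57, chr16:49699199-49699220, plus strand: cgggtctgGTTGCCgtggtgac
Ift57, chr16:49699226-49699247, plus strand: gccctgcgGTTGCCtggtaacg
Kif17, chr4:138262170-138262191, plus strand: tcacggagGTTGCCcagcaacg
Kif3a, chr11:53567263-53567284, plus strand: ccgcaggcGTTGCCccagtcta
Rfx2, chr17:56831111-56831132, minus strand: tggtaaccGTTGCCgggcgcaa
Bbs7, chr3:36613489-36613518, minus strand: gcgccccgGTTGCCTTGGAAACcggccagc
Mks1, chr11:87853183-87853212, plus strand: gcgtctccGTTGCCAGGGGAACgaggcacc

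Each window is written on its gene's strand, upstream of the annotated start, and Ift140 holds the arm on the opposite strand as GGCAAC. In Bbs7 and Mks1 the arm is part of a loose form of the spaced X-box palindrome, both arms and the spacer between them, marked whole in capitals. Each arm of this loose form is shorter than the arm searched alone and allows any base at an inner position. A match therefore need not pair the arm with its exact reverse complement, and neither marked stretch does. The loose palindrome was searched with a single spacer length, the one seen in these windows. In that form it was in 2 of the 29 members with a promoter (6.90%) and in 322 of 27025 genes (1.19%). Other spacer lengths were not searched, so these shares do not count every promoter with both arms. In the Kif17 window and the later Ift57 window, a second arm of the looser form GNAAC follows the match after a shorter spacer. Those matches were marked and counted as the arm alone. The other 6 members with the arm, Bbs1, Bbs5, Dync2h1, Ift172, Ift88 and Rfx3, held it at or after the start site. A match is a run of letters, not a bound site, and none of the arrays measured binding.

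**Figure D1:**
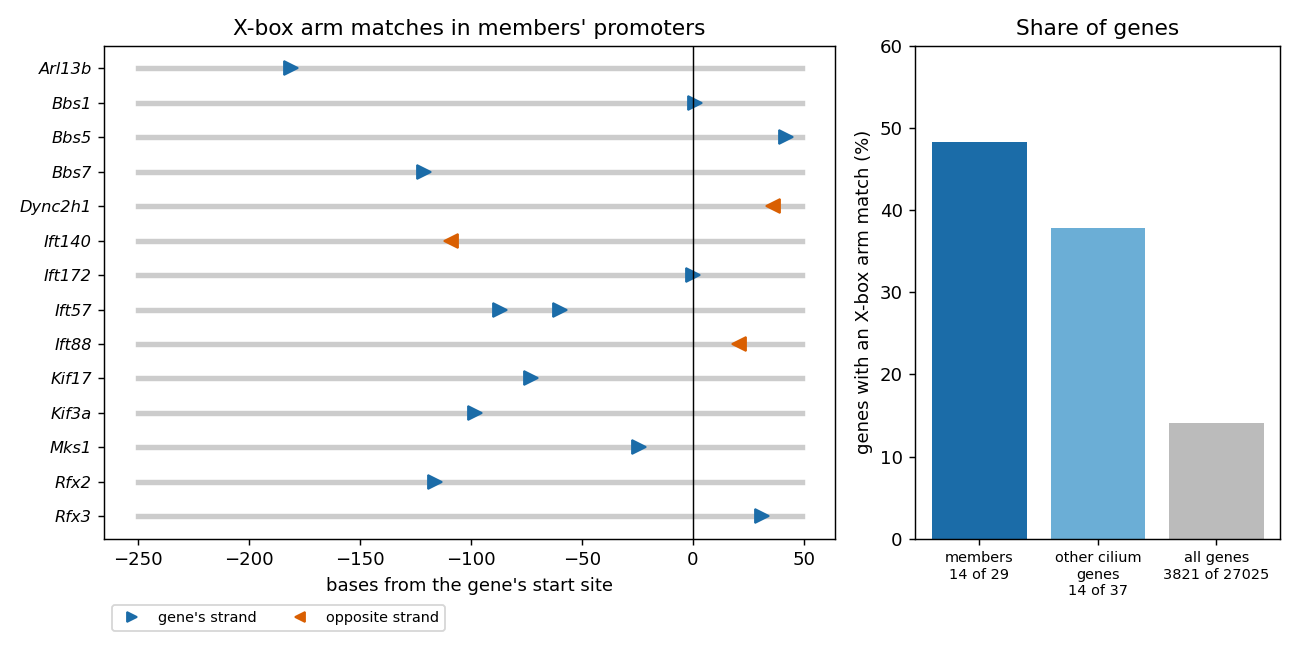
Left, position in bases from the start site of each of the 15 matches to the X-box arm GTTGCC in 14 members, with the arrow giving the strand and the grey bar the window searched; 9 matches lie before the start site. Right, percent of genes with a match among members, other cilium genes and all genes with a promoter, at 48.3%, 37.8% and 14.1%.

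Ratios here and below are log2 of mutant over WT. The tissue label was checked with lists of marker genes. No pancreas gene of the 11 with a probe had a scanner signal above 1000 in both pools, glucagon (Gcg) stayed under the background limit on each array, and 7 of 9 kidney genes exceeded 1000, Umod with 47875 (mutant) and 50921 (WT). Signals of different probes do not measure relative amounts, but the kidney markers were bright and the pancreas markers dim, so the members' values below are described as those of the pools and not of pancreas. Other cell types also differed between the pools: all 7 oocyte and ovary genes had ratios below 0 on each array, and so did all 4 fat genes, from -0.85 for Adipoq to -1.17 for Ucp1. Summed signals were 392 (mutant) and 2761 (WT) for the former and 3168 (mutant) and 6484 (WT) for the latter. In mutant RNA Zp2 and Nlrp14 were over the background limit on neither array, so no size is given for them, and Dppa3 was over it on 1 of 2 arrays. The 4 ovary genes measured in both pools on both arrays, Padi6, Zp3, Gdf9 and Amhr2, ranged from -2.46 for Padi6 to -1.34 for Amhr2. These and Ucp1 passed 2-fold on both arrays, and so did Dppa3 and Nlrp14, which makes 6 of the 7 ovary genes. Measured pancreas genes ranged from -0.25 for Cpb1 to 0.08 for Ctrb1. Leukocyte genes ranged from -0.58 for Tyrobp to 0.16 for Csf1r. Kidney genes ranged from -0.20 for Slc12a1 to 0.49 for Aqp2, a collecting duct water channel. In such pools a smaller share of a cell type and less RNA per cell cannot be told apart, and the part of cell make-up in the members' ratios was not tested. Glis3 itself stood at -0.32 on the first array and -0.31 on the second, above the background limit in WT RNA each time and in mutant RNA at no time, which makes it at least 1.16-fold lower. Whether its probe lies in the mutated part is not known here, so it does not check the genotype.

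The ratios follow background correction and dye normalization, and the first array's value is given before the second's. Scanner signals are printed beside them as the scanner software gave them, so a ratio is not the quotient of the printed signals, and the offset of 50 in the correction draws the ratios of dim probes toward 0. A gene was called when both arrays passed 2-fold in 1 direction, or, as a looser threshold, a log2 ratio of 0.32 in 1 direction. At 2-fold 0 of the 34 measured members were called, against 40 of 20923 genes in all (0.191%), or 0.0335% higher and 0.158% lower in the mutant pool. At the looser threshold the count was again 0 of 34, against 1002 of 20923 genes (4.79%), or 1.85% higher and 2.94% lower. The members' median was -0.02, and that of all genes was -0.01. Their means over both arrays ran from -0.32 for Arl6 to 0.30 for Bbs12, which are 0.801 and 1.23 times the WT signal. The members thus had small ratios of either sign, spread much like those of other genes: 9 of 34 (26.5%) lay more than 0.2 from 0, against 22.7% of all genes, and 16 of 34 (47.1%) lay within 0.1 of 0, against 50.7%.

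Of the 34, 12 were higher in the mutant pool on both arrays, 14 were lower on both and 8 differed in sign, so 76.5% kept 1 sign, against 68.7% of all genes. The arrays differed by a median of 0.07 over members and of 0.11 over all genes. The 4 members whose arrays lay more than 0.2 apart were Ift81, Ift122, Kif3a and Dync2li1, and of these only Dync2li1 kept its sign. For each of the 34 the brightest probe passed the scanner's test of being well above background for each pool on each array.

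**Figure D2:**
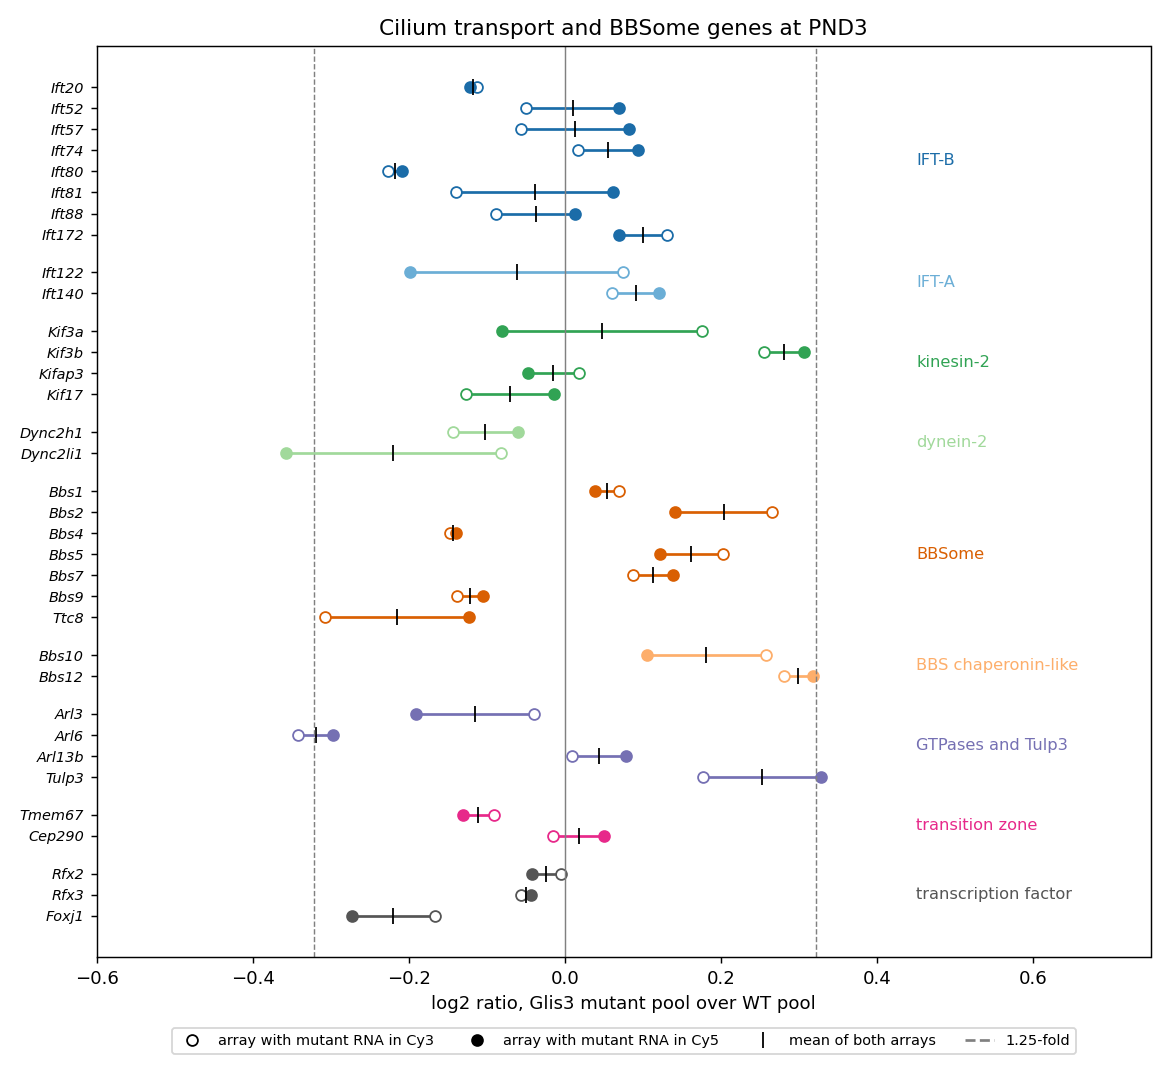
Log2 ratio of mutant over WT for each of the 34 measured members, grouped by role, on the first array (open circles), on the second (filled circles) and as their mean (black bar). Dashed lines mark the looser threshold; no member has both circles beyond the same line, and Arl6 and Bbs12 lie closest to it.

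IFT-B is the train component that works with kinesin-2 on the way to the tip. Its 8 members had a median of -0.01, with 2 higher on both arrays, 2 lower on both and 4 of mixed sign. Ift80, whose human counterpart is mutated in a skeletal ciliopathy, was lowest: its scanner signals were 788 (mutant) and 988 (WT) on the first array, and 747 and 837 on the second. The mutant signal was the lower one on each array, with log2 ratios of -0.23 and -0.21. Ift20, the subunit that also sits at the Golgi, stood at -0.11 and -0.12 and was lower with each of its 2 probes.

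Ift88, the IFT-B core subunit whose mutation gives the cystic Oak Ridge mouse, stood at -0.09 and 0.01. Ift52, another core subunit, stood at -0.05 and 0.07, and Ift57, a peripheral subunit, at -0.06 and 0.08. These 3 subunits had ratios of opposite sign on the arrays, and the means of Ift52 and Ift57 changed sign with median centring. Ift81, which binds tubulin together with Ift74, stood at -0.14 and 0.06, but its other probe was higher on both arrays, at 0.15 and 0.11, and the mean over its probes was 0.04. Ift74 itself stood at 0.02 and 0.09, although Ift74 lay on the other side of 0 with median centring (-0.12).

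Ift172, the largest IFT-B subunit, had probes that differed in whether they passed the looser threshold. Its brightest probe, matched to the cDNA AK016104, stood at 0.13 and 0.07, and it lay at -0.13 with median centring. The 3 other probes, matched to the transcript NM_026298, stood at 0.38, 0.31 and 0.26 as means of both arrays, and all 4 were higher in the mutant pool on each array. Of the 4, the probe at 0.38 alone passed the looser threshold on both arrays after normalization, with 0.43 and 0.33. With the scanner's own ratios it passed at 0.41 and 0.36, and the dimmest probe, the one at 0.26, passed at 0.82 and 0.34, so the order of the probes depended on the correction. The sequences of the 3 transcript probes are given because these carry the larger ratio.
A_52_P509906 (0.38): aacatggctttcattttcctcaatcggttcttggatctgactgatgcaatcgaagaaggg
A_52_P261409 (0.31): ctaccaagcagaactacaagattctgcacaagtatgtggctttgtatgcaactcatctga
A_51_P283423 (0.26): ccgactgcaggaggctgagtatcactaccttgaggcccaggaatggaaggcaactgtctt

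Each of these 60-base probes has at least 1 forward reading frame without a stop codon, whereas the AK016104 probe has 0 of 3. Brightest probes of other members, such as that of Ift140, also have 0, and a link of open frames to the ratios was not tested. On the scanner signals the AK016104 probe read 7405 (mutant) and 7030.4 (WT) on the first array, and 6803 and 6350.5 on the second. The probe at 0.38 read 1681 and 1262 on the first of these arrays. So the rule of the brightest probe gave Ift172 its smallest ratio, and the other probes gave larger ratios of the same sign.

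IFT-A is the train component that works with dynein-2 on the way back to the base, and its 2 members had a median of 0.01. Ift122 stood at 0.07 and -0.20, so its sign depended on the array. Ift140, the IFT-A core subunit mutated in a skeletal and renal ciliopathy, stood at 0.06 and 0.12, and its 3 probes well above background had means of 0.09 each. That closeness held after the offset only: the scanner's own ratios were 0.08 and 0.13, 0.17 and 0.16, and, for the dimmest probe, 0.45 and 0.29. With median centring Ift140 changed sign, but its place relative to the median of all genes did not.

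The kinesin-2 motors drive trains toward the tip. Kif3b, a motor subunit of the heterotrimeric form, read 432 (mutant) and 341 (WT) on the first array, and 401 and 307 on the second. The mutant signal was the higher one on each array, at log2 ratios of 0.25 and 0.31, and its other probe had a mean of 0.25. Kif3a, its partner subunit, stood at 0.18 and -0.08. Kifap3, the non-motor subunit, stood at 0.02 and -0.05, and its 3 probes ran from -0.11 to 0.11. Kif17, a homodimeric kinesin-2, was close to background with signals of 17.9 to 24.0, and stood at -0.13 and -0.01. The scanner's own ratios of Kif17 were -0.42 and 0.05, so there its arrays differed in sign. With median centring, Kif3a and Kif17 changed sign.

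Dynein-2 is the return motor, and both of its members were lower on both arrays. Dync2li1, the light intermediate chain, stood at -0.08 and -0.36, the largest gap between arrays among the members. Dync2h1, the heavy chain, stood at -0.14 and -0.06. It had 9 probes, 7 of them well above background, and these ran from -0.19 to 0.11, with 3 lower on both arrays and 1 higher on both. Its sign therefore depended on the probe.

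**Figure D3:**
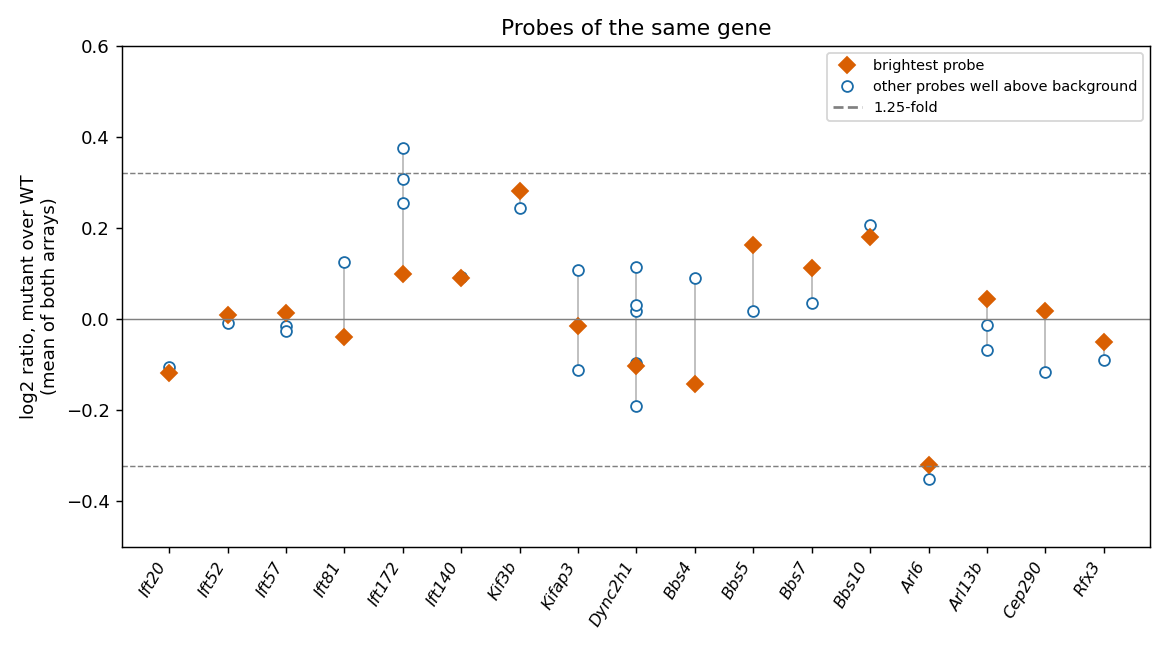
Log2 ratio (mean of both arrays) of every probe well above background, for the 17 members with more than 1 such probe; the brightest probe is a diamond and others are circles. Ift172 shows 3 circles above its diamond, and Dync2h1 has the widest range, from -0.19 to 0.11.

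Over the 17 members with more than 1 probe well above background, the range between probes had a median of 0.08 and reached 0.31. Of 62 such probes of members, 2 passed the looser threshold on both arrays, 1 each of Ift172 and Arl6, against 1353 of 30113 probes in all (4.49%). The median range between probes was thus of the same order as the members' median absolute ratio, 0.11.

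The BBSome had 7 measured subunits, and each kept its sign: Bbs1, Bbs2, Bbs5 and Bbs7 were higher in the mutant pool, and Bbs4, Bbs9 and Ttc8 were lower. Its median was 0.05. Bbs2, which sits with Bbs7 in the head of the complex, read 568 (mutant) and 466 (WT) on the first array, and 493 and 431 on the second. Its normalized log2 ratios were 0.27 and 0.14. Bbs5, a subunit that binds membrane lipids, stood at 0.20 and 0.12, with its other probe at 0.02. Bbs7 stood at 0.09 and 0.14, with its other probe at 0.08 and -0.01. Bbs1, the most often mutated BBSome gene in Bardet-Biedl syndrome, stood at 0.07 and 0.04.

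Ttc8, also called Bbs8, was the lowest BBSome member. It read 1154 (mutant) and 1407 (WT) on the first array, and 1055 and 1173 on the second, with log2 ratios of -0.31 and -0.12. Bbs4 stood at -0.15 and -0.14, but its other probe had a mean of 0.09. Bbs9, listed on the array as E130103I17Rik, stood at -0.14 and -0.11. Subunits of a single complex thus had ratios on both sides of 0, and none passed the looser threshold on both arrays. The signs of these 7 means were the same with median centring. With it, however, the arrays differed in sign for Bbs2 (0.19 and -0.06) and for Bbs5 (0.12 and -0.10).

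Bbs10 and Bbs12 resemble chaperonins and assist the assembly of the BBSome. Both were higher in the mutant pool on both arrays. Bbs12, listed as Gm1805, read 489.8 (mutant) and 381 (WT) on the first array, and 428 and 330.0 on the second. Its normalized log2 ratios were 0.28 and 0.32, the highest mean of any member, from a single probe, whereas the scanner's own ratios were 0.36 and 0.38, past the looser threshold on each array.
A_52_P92398: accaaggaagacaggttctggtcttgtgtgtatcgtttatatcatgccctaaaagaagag

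Bbs10 stood at 0.26 and 0.10, and its other probe, which overlaps the chosen one, at 0.21. With median centring the arrays differed in sign for the chosen Bbs10 probe (0.19 and -0.09). With the scanner software's own ratios Bbs12 (mean 0.37) and Kif3b (mean 0.36) passed the looser threshold on both arrays, among 2129 of 20923 genes that did so.

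Arl6, the small GTPase that recruits the BBSome to membranes and is itself a Bardet-Biedl gene (Bbs3), had the lowest ratio of the 34 members. It read 2059.8 (mutant) and 2684 (WT) on the first array, and 1823 and 2259.9 on the second. The mutant signals lay below the WT signals on each array, with log2 ratios of -0.34 and -0.30. Its other probe had a mean of -0.35, and the mean of both probes passed the looser threshold on both arrays. The sequences of both probes, which share no overlap, are shown because this is the member nearest a call.
A_52_P559126 (-0.32): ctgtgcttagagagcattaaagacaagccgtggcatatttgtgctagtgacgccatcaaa
A_51_P146576 (-0.35): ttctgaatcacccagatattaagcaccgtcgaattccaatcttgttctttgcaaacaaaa

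The absolute ratio of Arl6 was as large as or larger than that of 91.9% of all genes. Arl3, a GTPase that releases lipid-modified proteins inside the cilium, stood at -0.04 and -0.19. Arl13b, a GTPase of the ciliary membrane that acts on Arl3, stood at 0.01 and 0.08 and changed sign with median centring. Its 2 other probes had means of -0.01 and -0.07, and the mean over its probes was -0.01. Tulp3, the adaptor that hands receptors to IFT-A, read 1731 (mutant) and 1454 (WT) on the first array, and 1587 and 1279.7 on the second. Its mutant signals were the higher ones, with log2 ratios of 0.18 and 0.33.

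Of the transition zone genes, Tmem67, which encodes meckelin, stood at -0.09 and -0.13. Cep290, a scaffold of the zone, stood at -0.02 and 0.05, with its other probe at -0.12, and its mean changed sign with median centring. All 3 transcription factors had ratios below 0 on both arrays, but that of Rfx2 on the first array was within 0.01 of 0, and the scanner's own ratio there was above 0, at 0.0028. Foxj1, the regulator of motile cilia, read 203 (mutant) and 238 (WT) on the first array, and 176 and 217 on the second, with log2 ratios of -0.17 and -0.27. Rfx2 and Rfx3 were dim, at 75.1 to 87.4 and 30.6 to 42.2, and stood at -0.01 and -0.04 and at -0.06 and -0.04. For Rfx3 the scanner's own ratios were larger, at -0.29 and -0.12. A dimmer Rfx3 probe, over the background limit on both arrays in WT RNA only, had scanner ratios of -0.24 and -0.65. Both Rfx2 and Rfx3 lay on the other side of the median of all genes with median centring. The 13 measured members with an X-box arm had a median of 0.04 and ran from -0.10 for Dync2h1 to 0.16 for Bbs5, and the 15 with a promoter and no arm had a median of 0.01 and ran from -0.32 to 0.30.

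**Figure D4:**
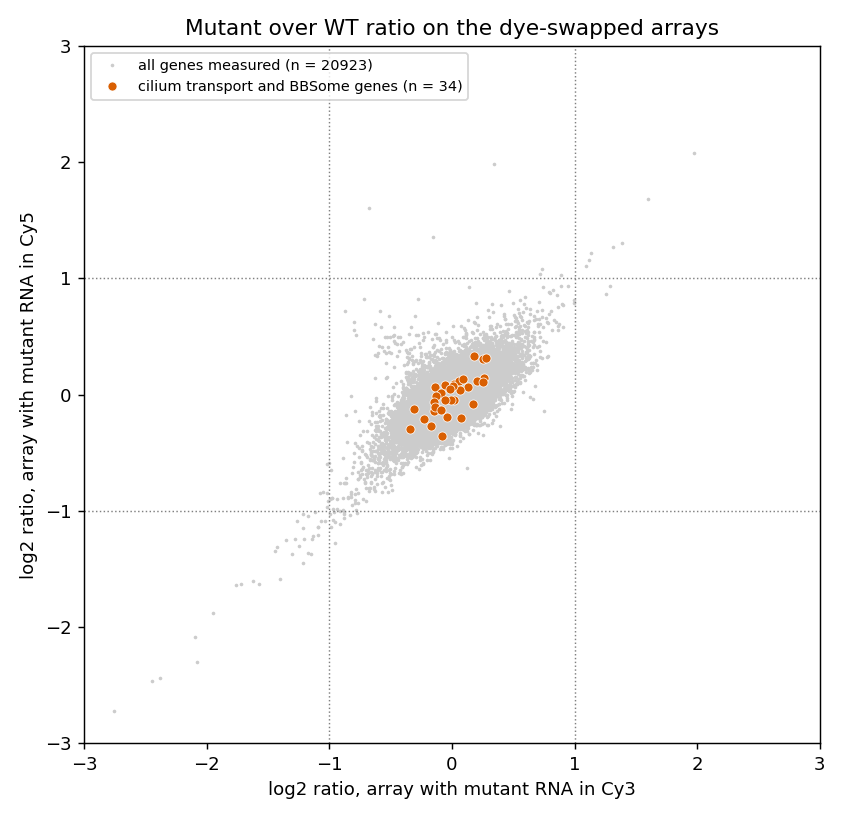
Log2 ratio of mutant over WT on the second array (mutant in Cy5) against that on the first (mutant in Cy3), for 20923 genes (grey) and the 34 members (orange). Dotted lines mark 2-fold; the members lie inside the central cloud, and no member is past 2-fold.

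Ratios of the arrays correlated at 0.721 across the 34 members and at 0.682 across all genes, which share the same pools and are not independent replicates. Of the 40 other cilium genes, 37 were measured, 6 higher on both arrays, 12 lower on both and 19 of mixed sign, with a median of -0.04. None passed the looser threshold on both arrays. The highest was Inpp5e, a phosphatase of the ciliary membrane, at 0.32 and the lowest was Ttc26, the IFT-B subunit IFT56, at -0.27.

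Markers of motile, multiciliated cells were mostly dim. Of 19 genes, 12 were measured, Foxj1 among them, with signals from 13.7 to 1325 in the mutant pool and from 15.8 to 1393 in the WT pool, summing to 3691 and 3750.1. Their ratios ran from -0.22 for Foxj1 to 0.09 for Tppp3, none past the looser threshold on both arrays, and Dnaic2 and Spag6 did not rise above the scanner's background limit anywhere.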

How the data were processed

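Per the labels, PND3 RNA (500 ng) was amplified and labelled with Cy3 or Cy5. The scanner files deposited by the authors hold spot and background intensities, processed signals and log10 ratios of Cy5 over Cy3, per the file headers from Agilent Feature Extraction 9.1.3.1, whereas the submitters' processing notes name version 8.1. The log2 value table deposited by the authors held mutant over WT ratios (r = 0.9996 and 0.9997 with the scanner ratios, median 0). Flags for well above background, outlier, saturation and control spots, scored as other values per the file headers, were used as given.

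With R 4.3.3 and limma 3.58.1, background was corrected by normexp (offset 50), ratios were normalized by loess within arrays with controls at weight 0, and the first array's sign was turned to give mutant over WT. This offset pulls ratios of dim probes to 0. Outlier spots (18 and 26 of 43379) were dropped, none was saturated, and 72.8% to 76.6% exceeded the background limit in each channel. A gene was measured when a probe was well above background in 1 pool on both arrays. The bound for Glis3 sets the WT level against the dimmest level still over that limit, after Aquantile normalization. Scanner signals are processed signals. Of 41174 probes, 22951 were matched to RefSeq genes.

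Steps were checked on simulated data. All members are named, with the highest and lowest gene of other lists and their genes past 2-fold. Members and lists were chosen with earlier results of these data known. No E15.5 value was used, because no table pairing those probe sets with genes was used here.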

Additional observations from a re-analysis of the deposited data

How the results depend on the processing

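No member was 2-fold apart under any alternative run, whereas all genes past 2-fold numbered 176 with the scanner's ratios and 176 with the authors' value table, 70 with an offset of 16, and 48 to 59 on single arrays, against 40. Genes past the looser threshold, 0.32, numbered 2129 with the scanner's ratios and with the value table, 2181 with median centring and 1863 to 2522 on single arrays, against 1002. Members past it were 2 higher with each of the scanner's ratios and the authors' table (Kif3b, Bbs12), 3 lower with median centring (Ift20, Ttc8, Arl6), 1 lower with the mean over probes (Arl6), and 0 to 1 higher and 1 lower on single arrays (Arl6 on the first, Tulp3 and Dync2li1 on the second). Under median centring all genes had a median of -0.11 and members one of -0.16. With it 10 members changed sign and 9 changed side of the median of all genes. The mean over probes turned 4 members, and single arrays turned 5 and 3. Their cause was not tested. No paired analysis was possible because both arrays hold the same pools and the E15.5 samples, which share replicate numbers, were not used, so the alternatives planned for them were not run. The number of pools, 1 per genotype, limits what these ratios can show.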
